A study of Mus musculus with 8 samples.

Results

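Mitochondrial ribosomal protein genes were examined in sorted stromal cells of the mouse colon, with the small subunit set against the large subunit. The family was taken as every gene symbol of the form Mrps or Mrpl followed by a number and at most 1 further letter. It held 77 of the 24346 symbols in the expression tables, 29 with an Mrps (small subunit) and 48 with an Mrpl (large subunit) symbol. The samples were 8 RNA-seq libraries, each from a separate mouse aged 12 weeks. The 4 control mice carried loxP-flanked alleles of Il10ra, which encodes the receptor chain that binds interleukin-10, and no Cre (Il10ra flox/flox). The 4 conditional knockout (cKO) mice carried the same alleles together with Cre recombinase under Pdgfra control (Pdgfra cre; Il10ra flox/flox), so that deletion is limited to cells with Pdgfra promoter activity, now or in their past. Live podoplanin-positive cells negative for CD45, CD31 and EpCAM were sorted from whole colons. The study asked what interleukin-10 reception in fibroblasts does in the large intestine, and its title names type I interferon signalling. For the family the design allows the comparison of 4 cKO with 4 control mice.

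Mitochondria carry their own ribosome, the mitoribosome, which translates the few messenger RNAs of the mitochondrial genome. Its products are core subunits of the oxidative phosphorylation complexes, so most respiratory complexes cannot be completed without it. The ribosomal RNAs come from mitochondrial DNA, while every protein is encoded in the nucleus, made in the cytosol and imported. The small subunit binds messenger RNA and decodes it, and the large subunit forms peptide bonds and passes the chain to the inner membrane through its exit tunnel. About the shared core, which has bacterial counterparts, lies a shell of proteins found only in mitochondria.

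Values were FPKM, fragments per kilobase of transcript scaled for the size of the library, so levels could be compared between genes. Il10ra itself was low in every library. It was at 0.842, 0.665, 0.614 and 0.403 FPKM in control mice 1 to 4 and at 0.439, 0.273, 0.633 and 0.636 FPKM in cKO mice 1 to 4. These ranges overlapped (two-sided exact permutation test, p = 0.4; the smallest p this design allows is 0.0286). The sources used here do not say which exon is flanked, so a gene-wide value does not check the labels. Fibroblast markers were high in every library, with summed FPKM of 8 fibroblast genes (Pdgfra, Pdpn, Col1a1 and others) between 17183 and 21014. Epithelial transcripts set some cKO libraries apart. The sum of 12 epithelial markers was 57.4 to 125 FPKM in the controls but 973 in cKO mouse 1, 505 in cKO mouse 2, 133 in cKO mouse 3 and 48.3 in cKO mouse 4. All 12 had a higher mean in cKO, and no epithelial marker was at 0 in every library. In bulk samples such as these, fewer cells of a type and less RNA per cell cannot be told apart. Myeloid (10 genes) and endothelial (8 genes) sums were highest in cKO mouse 1, at 155 and 12.8 FPKM against control maxima of 94.99 and 4.79. The endothelial sum was 4.27, 8.48 and 5.78 FPKM in cKO mice 2 to 4. The myeloid sums of these mice lay within the range of the controls. Smooth muscle markers (7 genes) summed to at most 57.8 FPKM in controls and 84.4 FPKM in cKO, and lymphoid markers (10 genes) to at most 89.7 and 172 FPKM. The smooth muscle sum of cKO mouse 2 (42.04 FPKM) and the lymphoid sum of cKO mouse 3 (37.7 FPKM) lay under every control. Jchain alone gave 136 of the 172 FPKM, which were in cKO mouse 1. The mean was higher in cKO for 8 of 8 endothelial, 8 of 10 myeloid, 6 of 7 smooth muscle, 5 of 10 lymphoid and 4 of 4 glial markers. Sequencing depth relative to the other libraries ran from 0.857 to 1.08.

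All 77 genes were expressed, and all passed the filter of a mean of at least 1 FPKM over the 8 libraries, as did 11506 genes in all. Their mean levels ran from 2.52 FPKM for Mrpl19 to 202 FPKM for Mrpl33, an 80.0-fold range, with a median of 22.4 FPKM against 9.66 FPKM over all genes tested. The subunits had like medians, 23.3 FPKM for Mrps genes and 22.2 FPKM for Mrpl genes. Only 4 genes had a mean under 5 FPKM, and all 4 belonged to the large subunit. Proteins with a bacterial counterpart (46 genes) had a median of 25.7 FPKM, and mitochondria-specific proteins (30 genes) one of 14.5 FPKM. The remaining gene, Mrps36, is no ribosomal protein in spite of its symbol. Its product belongs to the α-ketoglutarate dehydrogenase complex, and it was at 39.0 FPKM.

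**Figure D1:**
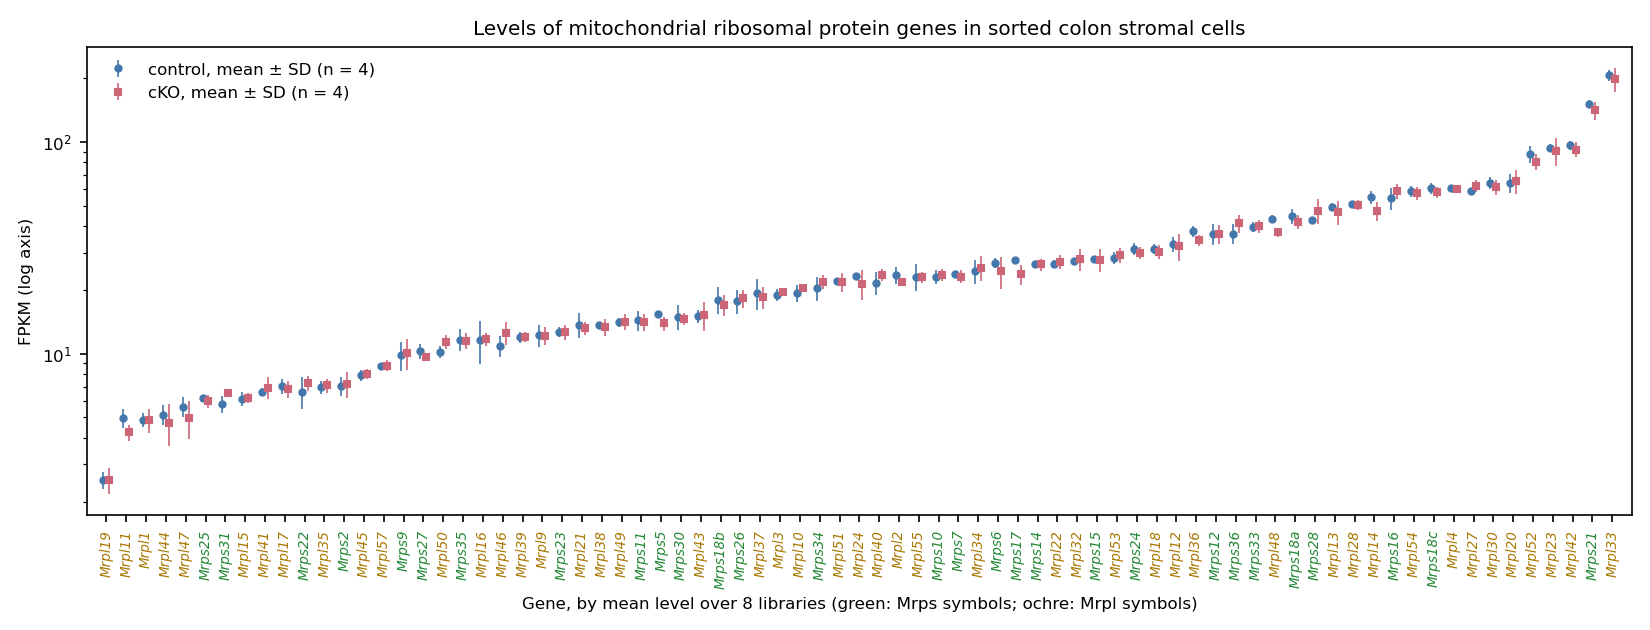
Mean FPKM (log axis) of the 77 genes in 4 control (blue circles) and 4 cKO mice (red squares), ordered by the mean over 8 libraries, with bars for the SD. The levels climb from 2.52 FPKM for Mrpl19 to 202 FPKM for Mrpl33, while the control and cKO points of a gene lie close together.

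In the small subunit the most abundant transcript was Mrps21, which encodes the counterpart of bacterial S21. Its FPKM was 153, 152, 144 and 158 in the control mice and 159, 130, 144 and 130 in the cKO mice, so the groups overlapped. Mrps18c (59.3 FPKM), Mrps16 (56.4 FPKM), Mrps28 (45.1 FPKM) and Mrps18a (43.3 FPKM) followed at well under the level of Mrps21. The least abundant Mrps transcripts were Mrps25 (6.08 FPKM), Mrps31 (6.14 FPKM), Mrps22 (6.93 FPKM), Mrps2 (7.11 FPKM) and Mrps9 (9.95 FPKM). Mrps25 and Mrps31 could not be ordered, since their difference was smaller than the SD over mice in each group of either gene. The same held for Mrps22 and Mrps2, and for Mrps18c and Mrps16.

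In the large subunit Mrpl33 stood well above the rest. It encodes a protein of 65 residues with a bacterial L33 counterpart, the shortest of the family. Its FPKM was 197, 216, 194 and 219 in the control mice and 225, 184, 211 and 168 in the cKO mice, with overlapping groups. Mrpl42 (94.3 FPKM) and Mrpl23 (92.2 FPKM) lay within each other's spread, above Mrpl52 (84.2 FPKM) and Mrpl20 (64.5 FPKM). At the low end came Mrpl19 (2.52 FPKM), Mrpl11 (4.62 FPKM), Mrpl1 (4.87 FPKM), Mrpl44 (4.94 FPKM) and Mrpl47 (5.31 FPKM), and neighbours among the last 4 were not separated beyond their spread. Level and length went in opposite directions. The 10 most abundant genes had a median transcript length of 679 bases in the GENCODE annotation, and the 10 least abundant had one of 3460 bases. Across the 77 genes Spearman's rho between mean FPKM and transcript length was -0.65, a description over genes that share the same libraries. FPKM already divides by a transcript length, and the annotation the authors divided by is not given in the sources used here.

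Levels varied little between mice. The coefficient of variation over all 8 libraries had a median of 8.74% and ran from 3.70% for Mrpl4 to 16.5% for Mrpl44. Its median was 10.3% over all tested genes, 7.95% for cytosolic ribosomal protein genes and 8.44% for nuclear-encoded oxidative phosphorylation genes. Mrpl4, the counterpart of bacterial L4, was at 60.6 ± 2.29 FPKM in controls and 59.8 ± 2.43 FPKM in cKO (SD, n = 4 each).

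No gene of the family passed the test between cKO and control mice. With limma on log2(FPKM + 1) and Benjamini-Hochberg adjustment over all genes tested, 0 of 77 were called at an adjusted p under 0.05, where 0.00869% of all 11506 tested genes (1 gene) were called. At an unadjusted p under 0.05, 3 members were lower in cKO (3.90%, against 3.03% of all genes) and 0 were higher (against 2.37%). In either direction that share was 5.41% of all genes. The mean was lower in cKO for 46 of 77 members (59.7%, against 52.6% of all genes). That majority depended on scaling, since 30 of 77 were lower, against 39.4% of all genes, once every library was rescaled to the same summed FPKM. With libraries scaled by the median ratio of their genes, the count stayed at 46 of 77, against 52.7% of all genes. The median log2 difference (cKO minus control) was -0.01 for the family and -0.01 for all tested genes. Single differences ran from -0.22 for Mrps17 to 0.19 for Mrpl46.

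The 95% interval of each gene's difference had a median half-width of 0.18 on the log2 scale, with a range of 0.11 to 0.30. For all 77 genes it lay inside a 1.5-fold change in either direction and for 46 inside a 1.2-fold change. The intervals are not adjusted for the number of genes, and 74 of them included 0. On the log2(FPKM + 1) scale a change of a low gene such as Mrpl19 is understated.

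**Figure D2:**
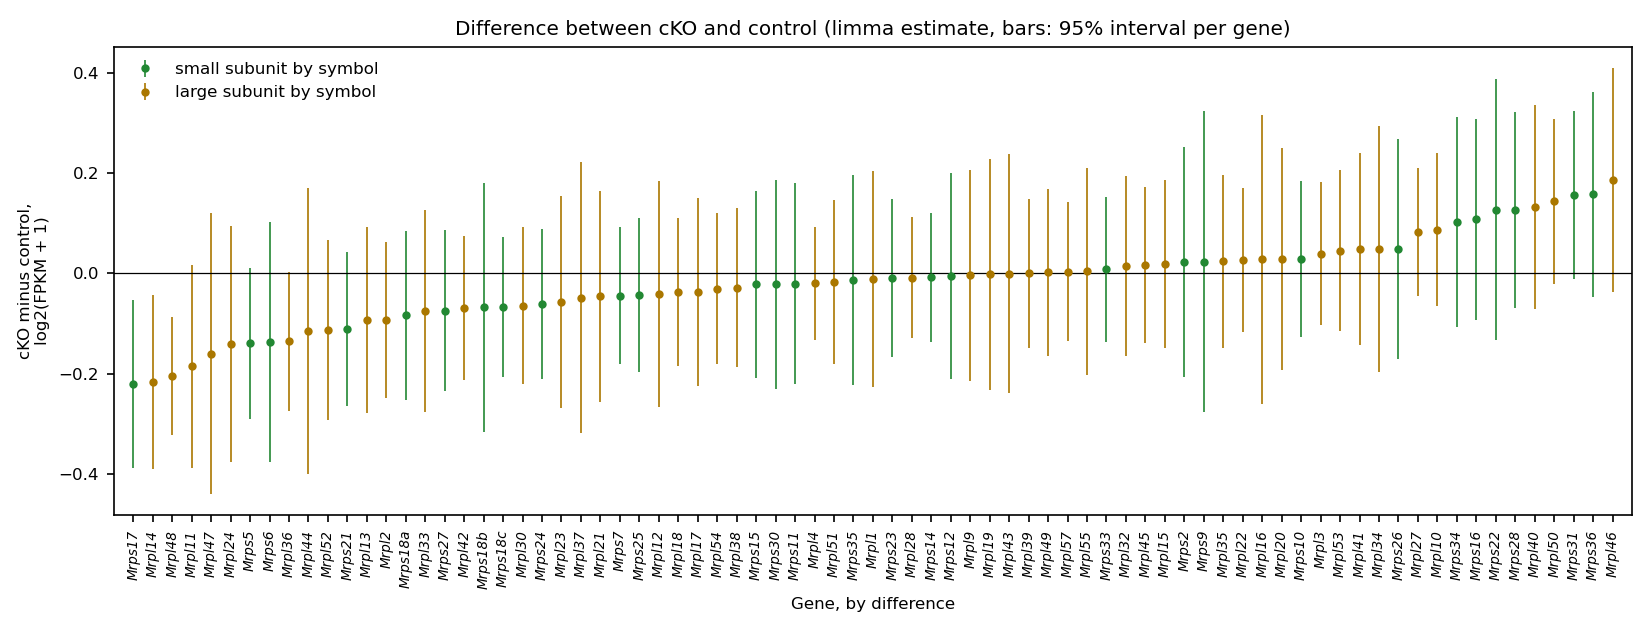
Difference between cKO and control on the log2(FPKM + 1) scale for each of the 77 genes (green Mrps, ochre Mrpl; limma estimates from 4 mice a group), with unadjusted 95% intervals. The estimates run from -0.22 to 0.19, small and large subunit genes are interleaved, and 74 intervals include 0.

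The small and large subunits did not part. The median log2 difference was -0.01 for the 29 Mrps genes, of which 18 had a lower mean in cKO, and -0.01 for the 48 Mrpl genes, of which 28 did. Small minus large came to -0.003, and it ran from -0.03 to 0.02 over the alternatives tried. Both medians turned positive (0.02 each) with rescaling to a fixed sum, and the median over all tested genes moved from -0.007 to 0.025. Within each library, the mean log2 level of Mrps genes minus that of Mrpl genes was 0.03, -0.07, 0.02 and 0.09 in the control mice. It was 0.05, 0.06, 0.004 and 0.01 in the cKO mice, within the range of the controls. Its mean was 0.02 ± 0.06 in controls and 0.03 ± 0.03 in cKO (SD, n = 4 each).

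Symbols do not always give a protein's place. Mrps18a and Mrps30 encode proteins that sit in the large subunit, and Mrps36 lies outside the ribosome, which leaves 26 small and 50 large subunit genes by structure. With that division the medians were -0.01 for each subunit. Members with bacterial counterparts had a median difference of -0.02 (30 of 46 lower in cKO), and mitochondria-specific members had one of -0.005 (16 of 30 lower). The 3 genes with an Mrps18 symbol differed in level. Mrps18c counts here as the counterpart of bacterial S18, and Mrps18a and Mrps18b as mitochondria-specific. Mrps18c was at 60.7 ± 3.62 FPKM in controls and 57.9 ± 3.57 FPKM in cKO, and Mrps18a at 44.6 ± 3.63 and 42.0 ± 3.37 FPKM. Mrps18b, the least abundant of them, was at 17.9 ± 2.61 and 17.0 ± 1.86 FPKM (SD, n = 4 each). None of the 3 had groups that were apart. Mrps30 was at 14.96 ± 1.99 FPKM in controls and 14.7 ± 0.984 FPKM in cKO.

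Single genes showed where the edges of the family lay. The control and cKO values did not overlap, with cKO lower, for 4 members (5.19%, against 1.9% of all genes), and with cKO higher for 1 (1.3%, against 1.36%). Those lower were Mrps17, Mrps5, Mrpl48 and Mrpl36, and the higher gene was Mrps31. None of them passed the test after adjustment.

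Mrps17 encodes the counterpart of bacterial S17, a protein of the small subunit (chr5:129715497-129722556, plus strand). Its FPKM was 27.9, 28.7, 26.8 and 27.8 in the control mice and 22.9, 26.8, 24.7 and 20.7 in the cKO mice. The highest cKO value lay just under the lowest control value. The log2 difference was -0.22 (SE 0.07), with an unadjusted p of 0.0149 and an adjusted p of 0.897 in limma.

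Mrpl48 encodes a mitochondria-specific protein of the large subunit's central protuberance (chr7:100545751-100608301, minus strand). Its FPKM was 45.7, 43.1, 42.3 and 41.8 in the control mice and 36.5, 37.5, 39.7 and 35.7 in the cKO mice. Every cKO mouse lay under every control mouse. The log2 difference was -0.20 (SE 0.05), and limma's unadjusted p of 0.0033 was the smallest in the family, with an adjusted p of 0.897. An exon of Rab6a overlaps Mrpl48 on the other strand, and reads of the pair cannot be told apart without strand.

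Mrpl14, the counterpart of bacterial L14, lies on the face of the large subunit that meets the small subunit (chr17:45686322-45698495, plus strand). Its FPKM was 53.2, 51.2, 59.6 and 55.0 in the control mice and 53.7, 47.5, 44.6 and 42.4 in the cKO mice. The groups overlapped through cKO mouse 1, which lay above 2 of the controls. The log2 difference was -0.22 (SE 0.08), with an unadjusted p of 0.0196 and an adjusted p of 0.897 in limma. Without cKO mouse 1 the difference was -0.28 and the adjusted p 0.429, the lowest adjusted p over the alternatives among the members with the largest differences or separate groups. Mrpl14 overlaps an exon of Tmem63b on the other strand.

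The other genes with separate groups differed by less. Mrps5, the counterpart of bacterial S5, was at 16.2, 15.1, 15.1 and 15.1 FPKM in the control mice and at 14.4, 14.8, 12.3 and 14.02 FPKM in the cKO mice. The gap between its groups was small, and the difference of -0.14 had an unadjusted p of 0.065 in limma. Without cKO mouse 3 it was -0.09. Mrpl36, the counterpart of bacterial L36, was at 37.0, 41.4, 36.6 and 36.7 FPKM in the control mice and at 35.3, 31.7, 36.5 and 34.2 FPKM in the cKO mice. Control mouse 2 stood above its group, and cKO mouse 3 came close to the controls. The difference was -0.14 (limma, unadjusted p = 0.0548), and Ndufs6, which encodes a complex I subunit, overlaps Mrpl36 on the other strand.

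Mrps31, a mitochondria-specific gene of the small subunit, went the other way. Its FPKM was 6.35, 5.06, 5.78 and 5.88 in the control mice and 6.54, 6.61, 6.39 and 6.56 in the cKO mice. The cKO mice lay closely together just above the highest control. The difference was 0.16, with an unadjusted p of 0.0644 in limma.

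**Figure D3:**
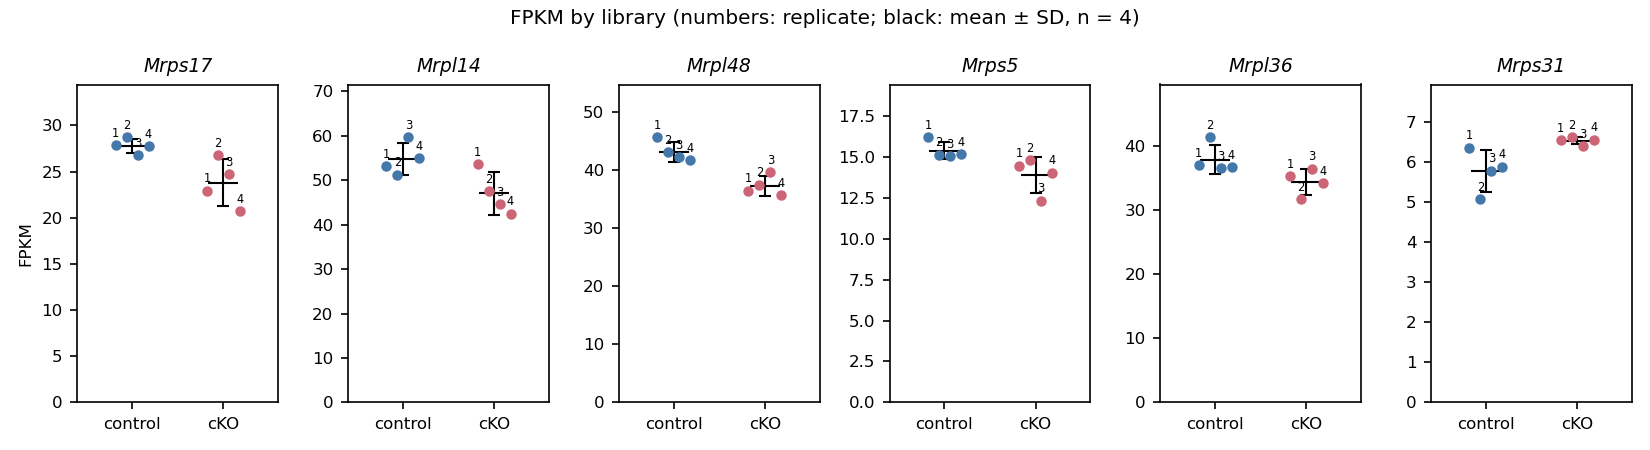
FPKM in each library for the 6 members with an unadjusted p under 0.05 or with groups that do not overlap (blue control, red cKO; digits give the mouse, black marks the mean ± SD, n = 4). The vertical axes start at 0, and the groups lie close together beside the level of each gene; none passed the test after adjustment.

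The highest differences were shared between the subunits. Mrpl46, which with Mrpl40 and Mrpl48 belongs to the central protuberance, was at 9.91, 12.4, 11.3 and 9.87 FPKM in the control mice and at 12.0, 12.9, 14.4 and 10.8 FPKM in the cKO mice. The groups overlapped, and the difference of 0.19 was the highest of the family (limma, unadjusted p = 0.0913). Mrpl46 and Mrps11 lie head to head on chromosome 7 with overlapping exons, so their values are uncertain without strand. The difference was 0.16 for Mrps36, 0.14 for Mrpl50, 0.13 for Mrpl40, 0.13 for Mrps28 and 0.13 for Mrps22. Several of these moved when a single mouse was left out. Mrpl46 came to 0.12 without cKO mouse 3 and Mrpl40 to 0.05 without control mouse 1. Mrps36 came to 0.10 without cKO mouse 1 and to 0.09 without control mouse 2. Mrps28 came to 0.07 without cKO mouse 1 and to 0.22 without cKO mouse 4. At the low end Mrpl11 differed by -0.18, Mrpl47 by -0.16 and Mrpl24 by -0.14, each with overlapping groups. Mrpl24 rested on cKO mouse 4, at 16.2 FPKM when the other 3 cKO mice were at 22.8 to 23.2. Without that mouse its difference was -0.02. Mrpl47 came to -0.07 without cKO mouse 3 and to -0.10 without control mouse 1.

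The stalk recruits translation factors to the large subunit. Of its 5 genes, 3 had a lower mean in cKO, with a median difference of -0.03, and none passed the test. Mrpl12, the factor-binding protein of the stalk, was at 30.9, 33.9, 30.4 and 36.2 FPKM in the control mice and at 38.9, 31.6, 27.9 and 29.9 FPKM in the cKO mice. The cKO mice spanned more than the range of the controls. Mrpl10, which anchors Mrpl12, was at 19.3 ± 1.75 FPKM in controls and 20.5 ± 0.525 FPKM in cKO. Mrpl11, at the base of the stalk, was at 5.39, 5.39, 4.82 and 4.33 FPKM in the control mice and at 4.02, 4.65, 4.50 and 3.86 FPKM in the cKO mice, and the groups overlapped. Mrpl54 was the most abundant stalk gene, at 58.5 ± 3.66 and 57.3 ± 4.25 FPKM, and Mrpl53 was at 28.2 ± 1.85 and 29.2 ± 2.43 FPKM (SD, n = 4 each).

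Around the exit tunnel 9 genes were followed, and 5 of them had a lower mean in cKO, with a median difference of -0.04. Their levels spread widely. Mrpl23 was at 93.7 ± 4.45 FPKM in controls and 90.7 ± 13.9 FPKM in cKO, while Mrpl44 was at 5.15 ± 0.559 and 4.73 ± 1.06 FPKM. Mrpl45, which tethers the ribosome to the inner membrane, was at 7.93 ± 0.487 FPKM in controls and 8.03 ± 0.452 FPKM in cKO. Mrpl22 was at 26.6 ± 1.15 and 27.2 ± 1.99 FPKM, Mrpl39 at 12.0 ± 0.740 and 12.0 ± 0.671 FPKM, and Mrpl17 at 7.02 ± 0.598 and 6.81 ± 0.602 FPKM (SD, n = 4 each). No tunnel gene passed the test.

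The family's mean level was next followed library by library. The mean of log2(FPKM + 1) over the 77 genes was 4.45, 4.47, 4.47 and 4.49 in the control mice and 4.51, 4.47, 4.45 and 4.39 in the cKO mice. The controls lay within a narrow band (SD 0.01), while cKO mouse 1 lay above it and cKO mouse 4 below it (SD 0.05). Among the 8 libraries cKO mouse 1 held the highest value for 25 of 77 members (32.5%, against 17.5% of all tested genes), and cKO mouse 4 the lowest value for 18 (23.4%, against 13.6%). Another 17 members were lowest in cKO mouse 3 (22.1%, against 8.95%). The summed FPKM of the 77 genes was 2326 to 2419 in controls, 2485 in cKO mouse 1 and 2174 in cKO mouse 4. The epithelial marker sum was likewise highest in cKO mouse 1 and lowest in cKO mouse 4, and its part in these levels was not tested. Without cKO mouse 1, 0 members were called, 50 of 77 had a lower mean in cKO, and the median differences were -0.04 for Mrps and -0.04 for Mrpl genes. Members with separate groups, cKO lower, then numbered 7 (9.09%, against 4.27% of all genes). They also numbered 7 without control mouse 4 (9.09%, against 4.07%) and 6 without cKO mouse 2 (7.79%, against 3.65%). Those with cKO higher numbered 5 without cKO mouse 4 (6.49%, against 2.85%) and 2 without cKO mouse 3 (2.60%, against 2.62%). Groups of 3 and 4 mice separate more often than groups of 4 and 4, in all genes as in the family.

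**Figure D4:**
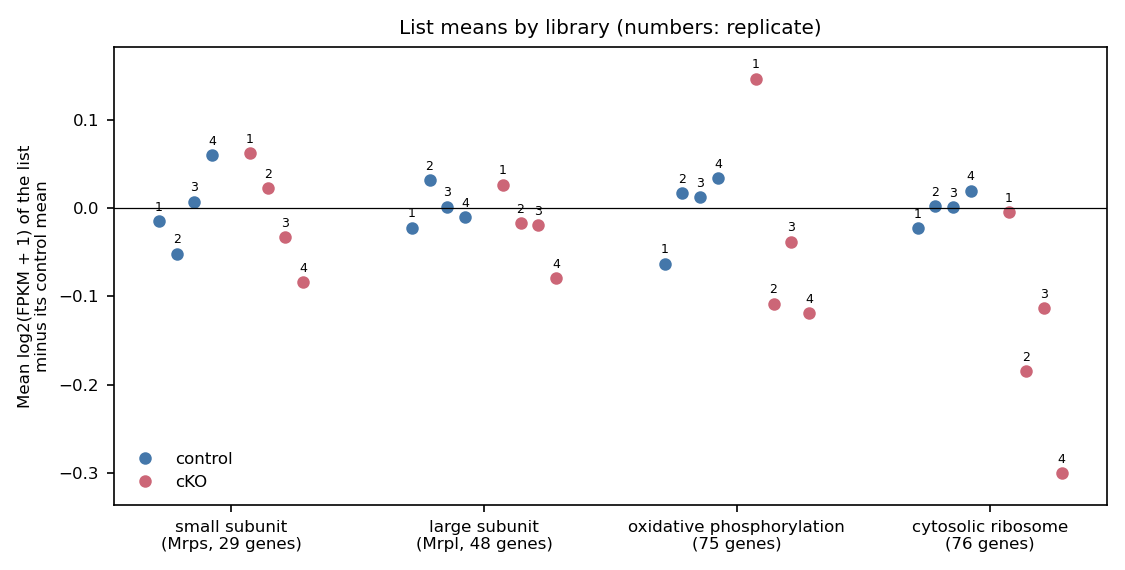
Mean log2(FPKM + 1) of each gene list in each library, less the list's control mean (blue control, red cKO; digits give the mouse). The small and large mitochondrial subunits stay within 0.1 of their control means, and cKO mouse 1 is the highest and cKO mouse 4 the lowest of the cKO mice in every list shown.

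Cytosolic ribosomal protein genes, which encode the ribosome outside mitochondria, gave other values in the same libraries. Of 76 genes, 75 had a lower mean in cKO, with a median difference of -0.15, and 43 were lower at an unadjusted p under 0.05 (56.6%), against 3 of 77 mitochondrial genes. Their library means were 8.31, 8.33, 8.33 and 8.35 in the control mice and 8.33, 8.15, 8.22 and 8.03 in the cKO mice. In cKO mouse 1 they lay among the controls, and the 3 other cKO mice lay lower. None of the 76 passed the test after adjustment (limma, 0 called), and the difference between the families was not tested. Nuclear-encoded oxidative phosphorylation genes, whose complexes take up the mitoribosome's products, had a lower mean in cKO for 50 of 75 (66.7%, against 52.6% of all genes). Their median difference was -0.03. At an unadjusted p under 0.05 in limma, 3 of them were lower (4.0%, against 3.03% of all genes) and 1 was higher (1.33%, against 2.37%). Their library mean was highest in cKO mouse 1, at 7.02, and 6.75 to 6.84 in the 3 other cKO mice, against 6.81 to 6.91 in controls. Of 28 symbols listed for transcripts of the mitochondrial genome itself, 0 were found in the expression tables, so these were not analysed.

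The rest of the mitochondrial translation pathway gave 0 calls among 83 tested genes. At an unadjusted p under 0.05 in limma, 1 was lower in cKO (1.2%, against 3.03% of all genes) and 3 were higher (3.61%, against 2.37%). The median difference was -0.004, with 43 lower and 40 higher. Mitoribosomal proteins with other symbols had 5 of 6 means lower in cKO and a median of -0.04. Among them were Dap3 (7.99 ± 0.485 and 7.97 ± 0.445 FPKM) and Ptcd3 (12.0 ± 0.833 and 11.9 ± 1.24 FPKM), both of the small subunit, and Gadd45gip1 (9.004 ± 1.14 and 8.13 ± 1.44 FPKM) of the large subunit. Chchd1, of the small subunit, was at 45.5 ± 1.64 and 42.4 ± 5.16 FPKM, and Aurkaip1, also there, at 31.7 ± 2.64 and 30.4 ± 2.42 FPKM. Ict1, a peptidyl-tRNA hydrolase built into the large subunit, was at 25.5 ± 2.02 and 25.5 ± 2.84 FPKM (control and cKO, SD, n = 4 each).

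Of 31 assembly genes, 15 were lower, 16 higher and 0 called. Tfb1m, the methyltransferase that marks the small subunit's ribosomal RNA, was at 2.22 ± 0.345 FPKM in controls and 2.97 ± 0.588 FPKM in cKO (limma, unadjusted p = 0.0464, adjusted p = 0.897). Rmnd1, a membrane protein needed for mitochondrial translation, was at 6.26 ± 0.935 and 7.68 ± 0.659 FPKM (limma, unadjusted p = 0.0308, adjusted p = 0.897). Of 13 translation factors, 6 were lower, 7 higher and 0 called, with a median of 0.02. The smallest p among them belonged to Mtrf1l, a release factor, at 2.89 ± 0.165 and 3.34 ± 0.280 FPKM (limma, unadjusted p = 0.0959). Tufm, the elongation factor that brings aminoacyl-tRNA to the ribosome, was at 24.9 ± 0.965 and 23.3 ± 1.1 FPKM (limma, unadjusted p = 0.122).

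Of 22 genes that charge mitochondrial tRNAs or finish their amino acids, 12 were lower and 10 higher. Yars2, the tyrosyl-tRNA synthetase, was at 9.38 ± 0.499 FPKM in controls and 8.37 ± 0.452 FPKM in cKO, with groups that did not overlap (limma, unadjusted p = 0.0496, adjusted p = 0.897). Of 11 regulators of mitochondrial biogenesis, 5 were lower and 6 higher. Tfb2m, the initiation factor of mitochondrial transcription, was at 8.19 ± 0.409 and 9.39 ± 0.599 FPKM (limma, unadjusted p = 0.0277, adjusted p = 0.897). Nrf1, an activator of many nuclear genes for mitochondrial proteins, was at 11.8 ± 0.780 and 13.2 ± 1.08 FPKM, with an adjusted p of 0.897 in limma. The coactivators Ppargc1a (0.209 and 0.232 FPKM) and Ppargc1b (0.802 and 0.986 FPKM) were below the filter.

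Promoter sequences of the family were searched for motifs, which the symbol rule did not use. RefSeq promoter windows on GRCm38.p6, from 250 bases before to 50 bases after a start, were matched for 68 of the 77 genes (74 windows). Mrpl38, Mrpl19, Mrpl13, Mrps28, Mrps34, Mrps35, Mrpl4, Mrpl54 and Mrpl15 were not matched. The windows were searched on both strands for an ETS motif (CCGGAAGT), which the GABP factor can bind, an NRF1 motif (GCGCANGCG), a YY1 motif (AAGATGGCG) and a TATA box (TATAAA). No 2 of these overlapped within a window of the family. The 4 stretches below were chosen because they hold a match before the start and no annotated exon. Each is written 5′ to 3′ along the gene's strand, with the match in capitals. Mrpl12 and Mrpl10, shown as the most abundant genes with such an NRF1 stretch, both belong to the stalk. The stalk genes Mrpl11 and Mrpl53 had none of the motifs in their windows, and Mrpl54 was not matched.
Mrpl43 (ETS; chr19:45006443-45006502, minus strand): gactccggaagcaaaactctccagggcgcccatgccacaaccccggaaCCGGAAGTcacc
Mrps27 (ETS; chr13:99344711-99344770, plus strand): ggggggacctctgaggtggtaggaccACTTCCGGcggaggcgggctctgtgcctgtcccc
Mrpl12 (NRF1; chr11:120484531-120484590, plus strand): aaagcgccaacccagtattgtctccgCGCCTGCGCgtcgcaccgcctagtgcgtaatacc
Mrpl10 (NRF1; chr11:97041421-97041480, plus strand): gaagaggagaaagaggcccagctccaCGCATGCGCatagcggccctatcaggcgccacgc

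The match lies 12 to 5 bases before the start in Mrpl43, 49 to 42 in Mrps27, 80 to 72 in Mrpl12 and 135 to 127 in Mrpl10. In Mrps27, Mrpl12 and Mrpl10 it is read as the reverse complement. Mrpl43 was at 15.1 ± 1.06 FPKM in controls and 15.1 ± 2.34 FPKM in cKO, and Mrps27 at 10.3 ± 0.850 and 9.68 ± 0.438 FPKM (SD, n = 4 each).

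An ETS match was in 16.2% of the family's windows, against 8.05% of windows of all tested genes and 3.89% of all promoters. An NRF1 match was in 21.6%, against 13.3% and 6.25%, and a YY1 match in 10.8%, against 3.13% and 1.40%. At least 1 of these motifs was in 45.9% of the family's windows, against 22.4% and 10.6%. The subunits differed in these shares. By symbol, NRF1 was in 14.8% of 27 small and 25.5% of 47 large subunit windows. ETS was in 14.8% and 17.0%, YY1 in 14.8% and 8.51%, and at least 1 of the 3 in 37.0% and 51.1%. TATA boxes were in 6.76%, against 7.16% and 13.6%. Oxidative phosphorylation genes had a similar share with at least 1 of the 3 motifs, 44.8%, but with NRF1 in 31.3% and ETS in 7.46%. Their YY1 share, 10.4%, was close to that of the family. Cytosolic ribosomal protein genes had ETS in 16.7%, NRF1 in 12.1% and YY1 in 7.58%. Median GC was 58.5% in the family's windows, 61.0% for tested genes and 52.7% for all promoters. A match is a description of letters and shows no binding, and these shares were not tested against each other.

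**Figure D5:**
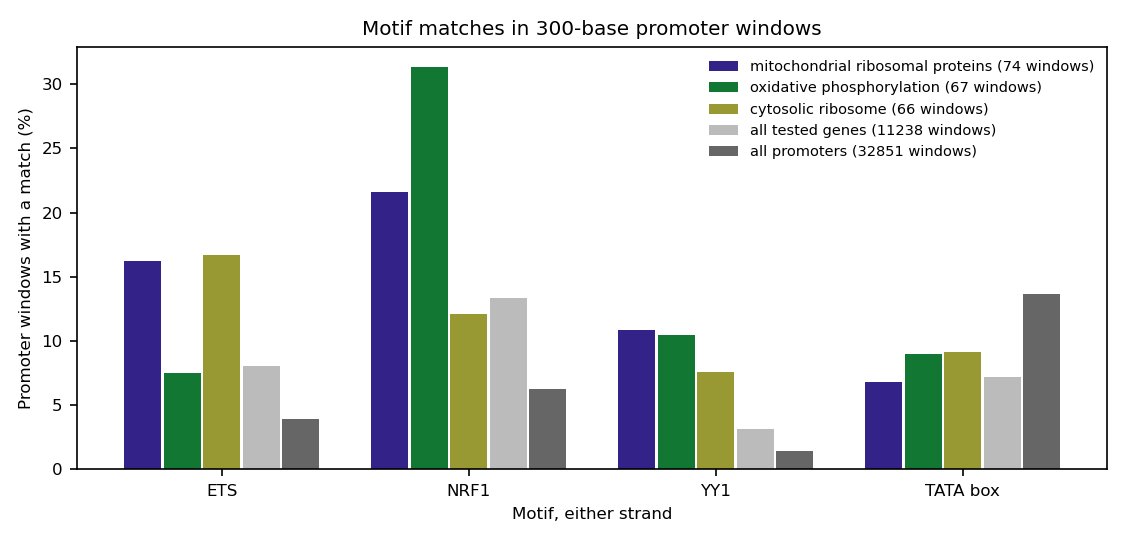
Share of 300-base promoter windows (%) with a match to each motif on either strand, for the mitochondrial ribosomal protein genes, the compared gene families, all tested genes and all promoters. The family's bars stand above those of all tested genes for ETS (16.2%), NRF1 (21.6%) and YY1 (10.8%), and not for the TATA box (6.76%).

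Genes with and without a motif were set side by side. The median log2 difference was -0.04 over the 34 matched genes with at least 1 of the 3 motifs and -0.006 over the 34 without. It was -0.03 with ETS (12 genes) and -0.009 without. For NRF1 it was -0.002 with the motif (16 genes) and -0.01 without, and for YY1 -0.06 (8 genes) and -0.006. Mrpl48 counts with ETS only through a window that is not its most upstream one. These medians are descriptions, and none of the genes behind them passed the test.

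The 77 genes lie on 17 chromosomes in the GENCODE annotation of GRCm38, with at most 10 on a single chromosome (11) and 0 on X or Y. Another protein-coding gene starts within 1000 bases on the opposite strand, pointing away, for 18 of 77 (23.4%), against 6.79% of all protein-coding genes and 10.4% of those tested. Mrps5 has such a partner in Zfp661, 128 bases away, and Mrpl50 in Zfp189, 83 bases away. Exons on the other strand overlap 27 of the 77 genes. The library kit does not mark strand, so values of those genes are uncertain to the extent that the partner is expressed.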

How the data were processed

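RNA of sorted cells was amplified with SMART-Seq HT and made into libraries with Nextera XT, per the labels' protocols. The authors deposited FPKM per gene for each of 8 libraries; per the submitters' processing notes they used TopHat2 2.1.1, Bowtie2 2.3.5.1, SAMtools 0.1.18, Cufflinks 2.2.1 and Cuffdiff with mm10. Which annotation and strand setting they used is not stated in the sources. Read totals are unknown; 57.9% to 65.3% of values of genes with a mean under 0.3 FPKM sat on whole-read steps (tolerance 0.002 log2), too few to recover counts, and these steps gave relative depth.

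Genes with a mean of at least 1 FPKM (11506) were tested on log2(FPKM + 1) with limma 3.58.1 (trend; R 4.3.3), 4 cKO against 4 control, with Benjamini-Hochberg adjustment and a threshold of 0.05. On simulated data of 11506 genes the fit recovered 62.4% of genes shifted by 0.5 log2, 91.5% by 1 and 98.9% by 2. The smallest of these shifts was 0.5, and recovery of differences as small as those of the family (-0.22 to 0.19) was not tested. Noise was drawn for each gene on its own, without effects shared within a library. Over 10 runs 670, 670 and 660 genes were shifted by 0.5, 1 and 2, while the real comparison called 1 gene. More calls ease the adjustment, so these shares do not give the power of the real comparison. Positions came from GENCODE M21 (GRCm38) and promoters from RefSeq. Replicates are separate mice; other alternatives were scaling, pseudocount, filter, weights, a replicate block and leaving out each mouse. The members and lists were chosen with earlier results of these data known. Genes named are the 5 most and 5 least abundant of each subunit, the 6 lowest and 6 highest differences, genes with separate groups or an unadjusted p under 0.05, the Mrps18 genes, Mrps30, Mrps36, the stalk and tunnel lists and, in each pathway list, genes with an unadjusted p under 0.05 or else those with the smallest p. Mrpl4, Mrpl43, Mrps27, Tufm, Nrf1, Ppargc1a and Ppargc1b were named after their values or sequences were seen.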

Additional observations from a re-analysis of the deposited data

Results flagged for a closer look

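Within groups of 4 mice, 5 of 88 groups (the 2 groups of each of the named members and of 4 family means) held a library far from the other 3, where chance gives about 1 in 20. Mrpl24 was at 16.2 FPKM in cKO mouse 4 and at 22.8 to 23.2 FPKM in the other cKO mice. Mrpl36 was at 41.4 FPKM in control mouse 2 and at 36.6 to 37.0 FPKM in the other controls. Mrpl39 was at 13.1 FPKM in control mouse 1 and at 11.5 to 11.8 FPKM in the others. Mrps25 was at 6.60 FPKM in cKO mouse 2 and at 5.74 to 5.82 FPKM in the others. Mrps5 was at 16.2 FPKM in control mouse 1 and at 15.1 FPKM in each of the others.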

How the results depend on the processing

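Over 18 alternatives 0 members and 0 other mitochondrial translation genes were called, and the members with the largest differences kept their direction. Directions of the family did not all hold. Same-numbered mice were not the most alike (r of same-numbered deviations 0.02 to 0.09, and 0 of 4 control mice correlated best with their own number). With 4 mice a group this check cannot exclude pairing. With the replicate number as a block 0 members were called. With rescaling to a fixed sum of FPKM, 30 members were lower in cKO and both subunit medians turned to 0.02. Groups were then apart for 1 member lower in cKO (1.3%, against 0.93% of all genes) and 2 higher (2.6%, against 2.35%). With quantile normalization 3 were apart with cKO lower (3.9%, against 1.94% of all genes) and 0 with cKO higher (against 1.1%). Small minus large, -0.003, ran from -0.03 to 0.02. Leaving out each mouse gave 4 to 7 members apart with cKO lower (2.79% to 4.27% of all genes) and 1 to 5 with cKO higher (2.26% to 3.22% of all genes), 40 to 53 members lower in cKO, and medians of -0.04 to 0.001 for the small and -0.04 to -0.006 for the large subunit. The cause of these shifts was not tested. A filter of 5 FPKM kept 73 members. Read depth is unknown beyond relative values, so counting error could not be separated from differences between mice.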
